A study of Populus ussuriensis with 2 samples.

Results

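The first steps of the phenylpropanoid pathway were examined in the basal ends of stem cuttings of Populus ussuriensis, a poplar, through 8 loci of 36385 listed: the phenylalanine ammonia-lyases PAL1 to PAL5, the cinnamate 4-hydroxylase C4H1 and the 4-coumarate:CoA ligases 4CL3 and 4CL5. The loci were taken by identifier, under a rule that uses no measured value, though they were chosen with earlier results of these data known. They are Potri.006G126800 (PAL1), Potri.008G038200 (PAL2), Potri.016G091100 (PAL3), Potri.010G224100 (PAL4), Potri.010G224200 (PAL5), Potri.013G157900 (C4H1), Potri.001G036900 (4CL3) and Potri.003G188500 (4CL5). The identifiers follow the form used for P. trichocarpa, a related poplar, and the gene names come with the list of loci, since the files pair no names with identifiers. PAL2, PAL4, PAL5 and 4CL3 were listed as xylem-type copies, and PAL1, PAL3, C4H1 and 4CL5 as the others. This grouping came with the list and could not be examined here, where a single tissue was sampled.

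Both libraries carry the same labels and form 1 group (n = 2), named replicate 1 and replicate 2 in accession order. Each was made from total RNA of the lowest 0.5 cm of in vitro cuttings at day 14 after cutting, from plantlets kept on 1/2 Murashige and Skoog medium with 20 g/L sucrose at 25 °C, with 16 h of light and 8 h of dark. No mutant, transgene or treatment other than cutting is named, the labels hold no second condition, and they do not say whether the libraries came from separate plants, so the spread between them may be technical. The piece is a mixture of stem tissues with whatever root tissue had formed, and in such a bulk sample fewer cells of a type and less RNA per cell cannot be told apart. The tissue label could not be checked against marker genes, because no source used here pairs identifiers of markers with names. The deposited FPKM (fragments per kilobase of transcript, per 1000000 mapped) summed to 553192 in replicate 1 and 535930 in replicate 2, and 20562 loci reached 1 FPKM in both. If reads and transcript lengths are whole numbers and the lengths have no common factor, the FPKM values imply totals of 10957286 and 12513099 reads. Of 400 loci used to set the total of replicate 1, 315 gave a whole length.

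PAL removes ammonia from phenylalanine and gives cinnamic acid. C4H, a membrane-bound cytochrome P450, hydroxylates cinnamic acid to p-coumaric acid, and 4CL joins p-coumaric acid and related acids to coenzyme A. The resulting thioesters feed lignin, flavonoids and other phenolics. In poplar stems the pathway is best known for lignin in the secondary walls of xylem, and phenolic products are also laid down in suberised and wounded tissue.

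Transcripts of all 3 steps were abundant at the stem base, and their levels formed an upper group of 6 loci and a lower pair. The locus sums, which add the FPKM of a locus's listed transcripts, had the same order in both libraries, from C4H1 through PAL1, 4CL3, PAL4, PAL2, PAL3 and 4CL5 down to PAL5. The 6 upper loci lay between 99.6 and 214.5 FPKM, and the lower pair, 4CL5 and PAL5, lay between 16.0 and 21.3 FPKM. FPKM is a level per length, so loci can be set side by side. All 8 together made up 0.179% (replicate 1) and 0.173% (replicate 2) of all listed FPKM.

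PAL1 had 202.6 FPKM in replicate 1 and 156.5 FPKM in replicate 2, a mean of 179.5 ± 32.6 FPKM (SD, n = 2). It was the most abundant PAL locus in both libraries, and also the member with the widest spread. PAL4 had 146.5 FPKM in replicate 1 and 148.9 FPKM in replicate 2 (mean 147.7 ± 1.67 FPKM). PAL2 had 124.2 FPKM in replicate 1 and 122.5 FPKM in replicate 2 (mean 123.4 ± 1.22 FPKM). Both were nearly level between the libraries, with PAL2 at 0.848 and 0.823 times PAL4. PAL3 had 113.1 FPKM in replicate 1 and 99.6 FPKM in replicate 2 (mean 106.4 ± 9.56 FPKM), below PAL2 in both. PAL5 had 16.0 FPKM in replicate 1 and 16.7 FPKM in replicate 2 (mean 16.3 ± 0.49 FPKM). The identifiers of PAL4 and PAL5 follow each other directly, and PAL4 stood 9.17 times above PAL5 in replicate 1 and 8.93 times above it in replicate 2.

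The hydroxylase C4H1 was the highest and the most even member, at 214.5 and 213.0 FPKM in replicates 1 and 2 (mean 213.8 ± 1.06 FPKM). The ligase 4CL3 had 151.6 FPKM in replicate 1 and 149.4 FPKM in replicate 2 (mean 150.5 ± 1.57 FPKM). The second ligase, 4CL5, had 20.3 FPKM in replicate 1 and 21.3 FPKM in replicate 2 (mean 20.8 ± 0.68 FPKM). Of the FPKM of both ligase loci, 4CL3 held 88.2% in replicate 1 and 87.5% in replicate 2.

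**Figure D1:**
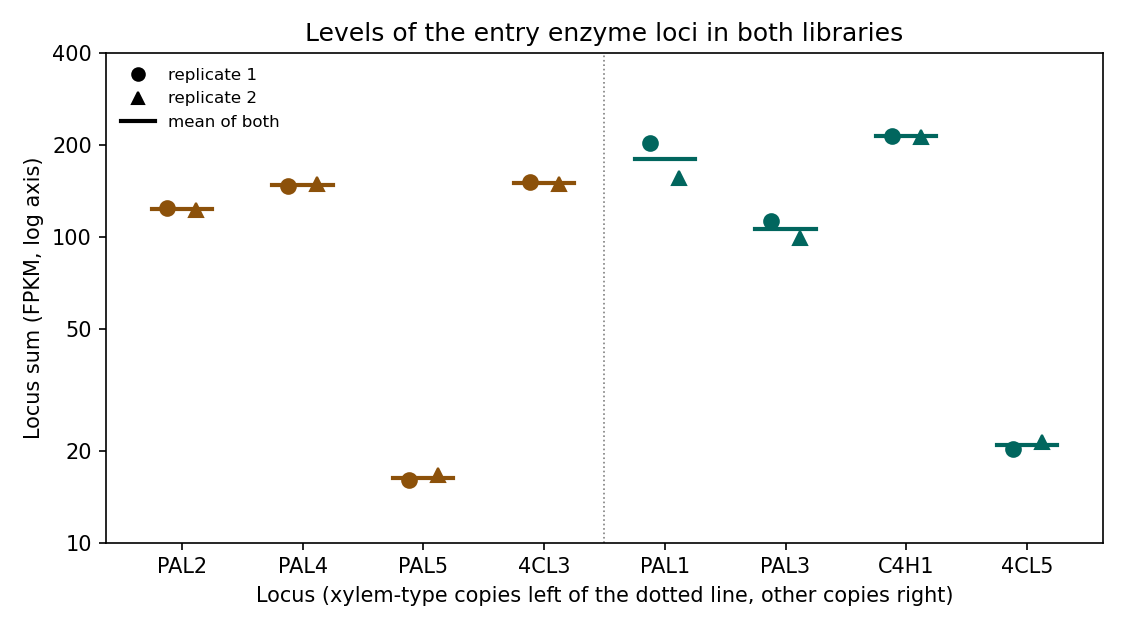
Locus sums in FPKM on a log axis for the 8 loci, with a circle for replicate 1, a triangle for replicate 2 and a line for their mean. The 6 upper loci lie between 99.6 and 214.5 FPKM, PAL5 and 4CL5 lie between 16.0 and 21.3 FPKM, and PAL1 shows the widest spread, at 202.6 and 156.5 FPKM.

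Not every place in the order was clear of the spread. The values of neighbours in the order did not overlap between any 2 loci, but 4CL3 and PAL4 were only 0.478 FPKM apart at their closest, and their means differed by 2.77 FPKM. The mean of PAL1 was 34.2 FPKM below that of C4H1 and 29.1 FPKM above that of 4CL3, both of the size of its own SD of 32.6 FPKM. PAL4 was above PAL2 by 24.3 FPKM on average, PAL2 above PAL3 by 17.0 FPKM and 4CL5 above PAL5 by 4.47 FPKM, each more than the SD of either locus. The widest step was from PAL3 to 4CL5, where PAL3 was 5.57 times as high in replicate 1 and 4.68 times in replicate 2. These differences were not tested, and an exact permutation test over 2 libraries could not reach 0.05.

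Set against the 36385 listed loci, the upper 6 members stood near the top. The list ends within number field 17 of the identifiers, so these ranks, and all shares of listed FPKM, hold within it only. C4H1 was at rank 293 in replicate 1 and 265 in replicate 2, and PAL1 at rank 321 and 433. 4CL3 was at rank 474 and 473, and PAL4 at 490 and 476. PAL2, at rank 608 and 616, and PAL3, at rank 699 and 818, completed the upper group. The lower pair stood well down the list, with 4CL5 at rank 5810 and 5543 and PAL5 at rank 7334 and 7060. Even PAL5 was above 79.8% of listed loci in replicate 1 and 80.6% in replicate 2, and above 64.3% and 65.7% of the loci at 1 FPKM or more in both libraries.

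By step of the pathway, the 5 PAL loci summed to 602.4 FPKM in replicate 1 and 544.1 FPKM in replicate 2 (mean 573.3 ± 41.2 FPKM, SD, n = 2). C4H1, the one C4H locus examined, stood at 214.5 and 213.0 FPKM. C4H2, the second copy known in P. trichocarpa, was not analysed here, so the C4H step may be understated. The 2 ligase loci summed to 171.9 FPKM in replicate 1 and 170.6 FPKM in replicate 2 (mean 171.3 ± 0.89 FPKM). PAL transcript was thus 2.81 times that of C4H1 in replicate 1 and 2.55 times in replicate 2, and 3.505 and 3.19 times that of the 2 ligase loci. Other 4CL loci were not looked for, so the ligase step may be understated too. These ratios therefore compare the loci examined, not whole steps. Within PAL, 4 loci each held between 18.3% and 33.6% of the sum, while PAL5 held 2.65% in replicate 1 and 3.06% in replicate 2.

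The xylem-type copies did not stand above the others as a group. PAL2, PAL4, PAL5 and 4CL3 summed to 438.3 FPKM in replicate 1 and 437.4 FPKM in replicate 2 (mean 437.8 ± 0.62 FPKM, SD, n = 2). PAL1, PAL3, C4H1 and 4CL5 summed to 550.5 FPKM in replicate 1 and 490.4 FPKM in replicate 2 (mean 520.5 ± 42.5 FPKM). The xylem-type sum was 0.796 times the other sum in replicate 1 and 0.892 times in replicate 2, a mean ratio of 0.844 ± 0.068. This direction of the sums rested on C4H1, which has no xylem-type counterpart among the 8: without it the mean ratio was 1.44. That ratio sets the sum of PAL2, PAL4, PAL5 and 4CL3 against PAL1, PAL3 and 4CL5 only. The numbers of loci are then unequal, so it is not a ratio per locus.

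Within the families the picture differed between PAL and 4CL. The xylem-type PAL2, PAL4 and PAL5 summed to 286.7 FPKM in replicate 1 against 288.1 FPKM in replicate 2. The other PAL loci, PAL1 and PAL3, summed to 315.7 FPKM in replicate 1 against 256.1 FPKM in replicate 2. The ratio was 0.908 in replicate 1 and 1.12 in replicate 2 (mean 1.02 ± 0.15), so the sums of the kinds of PAL copy changed places between the libraries. The sums are over 3 xylem-type and 2 other loci. Per locus, an alternative added after the data were seen, the xylem-type mean was 0.605 times the other mean in replicate 1 and 0.750 times in replicate 2 (mean 0.678 ± 0.10), below it in both. That ratio includes the low PAL5, at 16.0 and 16.7 FPKM, and was not computed without it. In both libraries PAL2 and PAL4 lay between PAL3 and PAL1, so the direction per locus may rest on PAL5. Without PAL1, also added after the data were seen, the mean ratio of sums was 2.71, but this sets 3 xylem-type loci against PAL3 alone. No ratio per locus was computed without PAL1. Between the ligases, xylem-type 4CL3 was 7.46 times 4CL5 in replicate 1 and 7.02 times in replicate 2, a mean of 7.24 ± 0.31.

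**Figure D2:**
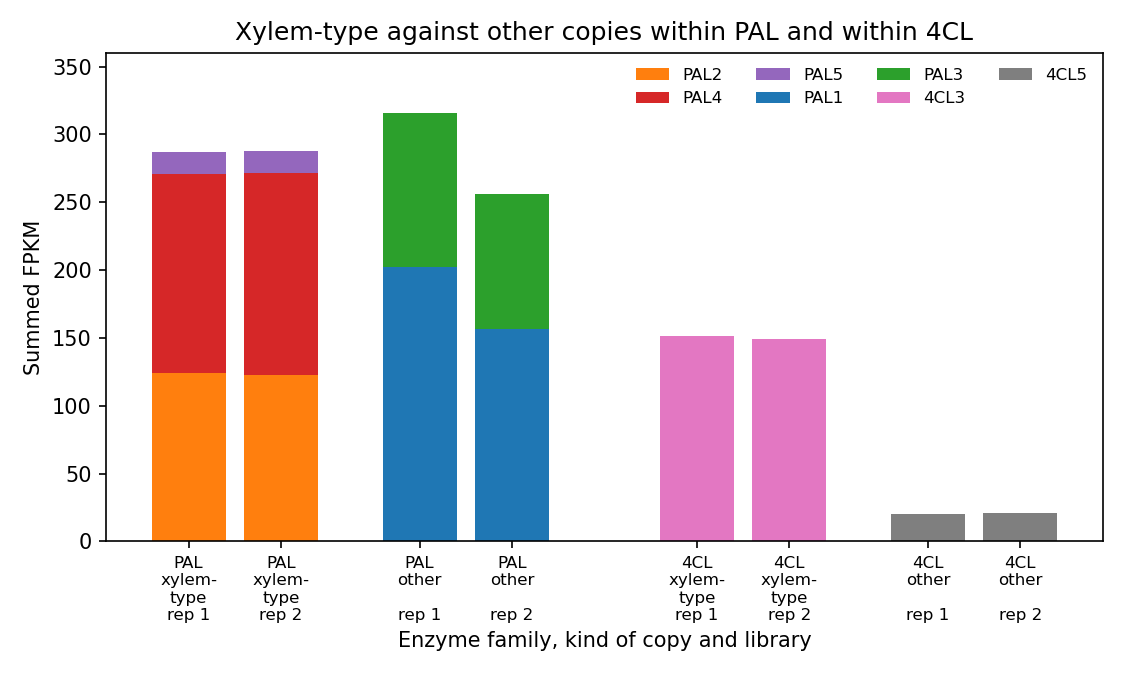
Summed FPKM of xylem-type and other copies within PAL (left) and within 4CL (right), with 1 bar for each library and colours for the loci. The xylem-type PAL bars reach 286.7 and 288.1 FPKM and the other PAL bars 315.7 and 256.1 FPKM, while 4CL3 stands far above 4CL5.

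The kind of copy did not fix the level of a locus. PAL5, a xylem-type copy, was the lowest of the 8, and the other 3 xylem-type loci lay within 122.5 to 151.6 FPKM. Among the other copies, 4CL5 was nearly as low as PAL5, whereas C4H1 and PAL1 were the 2 highest loci.

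In FPKM as deposited, the members were closely matched between the libraries, except PAL1 and to a lesser degree PAL3. None of the 8 was 2-fold apart, which at a mean of at least 1 FPKM held for 5.03% of 21247 loci. Less than 5% apart were 6 members, namely PAL2, PAL4, PAL5, C4H1, 4CL3 and 4CL5, as were 19.3% of those loci. Of the 6 members from 100 to under 1000 FPKM 4 were this close, against 25.2% of the 790 loci at that level. With each library scaled to the same listed sum, replicate 1 was 0.929 times replicate 2 for PAL5 and 0.925 times for 4CL5. Scaled by the median of ratios, it was 0.939 and 0.935 times, so both loci passed 5% under either scaling. The shares over all loci were not recomputed after scaling. PAL1 was 1.29-fold higher in replicate 1 than in replicate 2, and it was the only member with one library at least 25% above the other, a distance reached by 32.3% of the 21247 loci. PAL3 was 1.14-fold higher in replicate 1. The median log2 ratio of replicate 1 to replicate 2 was 0.02 over the 8 members and 0.07 over those 790 loci.

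Among those 790 loci the size of the log2 ratio had a median of 0.16, a fold of 1.12. The log2 ratio of PAL1 was 0.37, farther apart than 84.3% of them, and that of PAL3 was 0.18, farther than 55.1%. C4H1, at 0.01, was farther apart than 2.91% of them, and PAL2 (0.02), 4CL3 (0.02) and PAL4 (-0.02) than 7.09% to 7.85%. All 6 members of this level thus lay within the spread of the 790 loci, of which 20.5% were at least 25% apart and 1.01% were 2-fold apart.

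PAL1 and PAL3 made up nearly the whole difference of the 8 loci. The summed FPKM of all members was 61.0 higher in replicate 1, of which PAL1 gave 46.1 and PAL3 gave 13.5, and the other 6 loci together gave 1.43. PAL1 and PAL3 remained higher in replicate 1 when each library was scaled to the same listed sum (1.254-fold and 1.10-fold) or by the median of ratios (1.27-fold and 1.11-fold). The ratios of PAL2, C4H1 and 4CL3, at most 1.01, were smaller than the shift between the libraries that either scaling makes (1.03 and 1.02), so no direction is given for them.

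**Figure D3:**
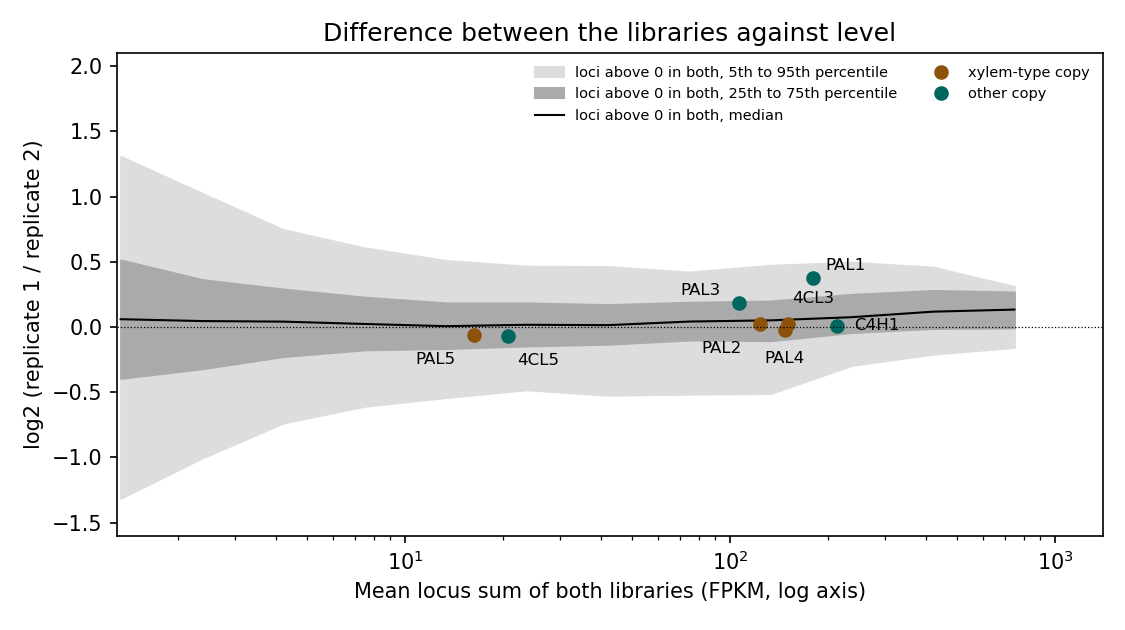
Log2 ratio of replicate 1 to replicate 2 against mean level for the 8 loci (points), with bands for all loci above 0 in both libraries at a mean of at least 1 FPKM, drawn at the midpoints of level classes. PAL1, at 0.37, lies above the band from the 25th to the 75th percentile at its level, and C4H1, 4CL3, PAL2 and PAL4 lie within 0.03 of 0.

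The reads behind these values bear on how firmly they can be read. For a locus with 1 transcript above 0, FPKM values made from whole reads stand in a ratio of whole numbers once the depth ratio of 1.14 is removed, and reads and length can then be recovered. This recovery was devised after the data had been seen. PAL1 came out whole, with 5840 reads in replicate 1 and 5152 in replicate 2 over a length of 2631 bases. If reads were whole, these are the fewest reads and the shortest length that the values allow. PAL3 came out whole too, with at least 3099 and 3116 reads over at least 2500 bases. The counting interval (95%, Clopper-Pearson) of the ratio of replicate 1 to replicate 2 was 1.247 to 1.34 for PAL1 and 1.08 to 1.19 for PAL3. Both exclude a ratio of 1, but they cover counting error only and compare these libraries, not conditions.

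PAL2 came out whole with at least 1221 reads in replicate 1 and 1375 in replicate 2, over at least 897 bases. These are the fewest reads that a whole length allows, and the interval of 0.938 to 1.10 includes 1. A multiple of these reads and of this length would give the same values with a narrower interval. The width is thus not comparable with those of PAL1 and PAL3. PAL4 and PAL5, which also have 1 listed transcript each, did not come out whole with up to 10000 reads tried. Among the 3876 single-transcript loci from 10 to under 300 FPKM, 86.1% came out whole, against 0.181% with a depth ratio made wrong by 1.41%, a factor that is itself no ratio of whole numbers. PAL4 and PAL5 are thus among the minority for which whole reads were not recovered. Whether reads were divided between these or other similar copies was not tested, and the levels of PAL4 and PAL5 and the ratio between them are uncertain to that extent. The implied reads per kilobase of PAL5 were 175.1 in replicate 1 and 208.6 in replicate 2, against 1605 and 1863 for PAL4.

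A second listed transcript is present for 4 members, and transcript 1 led all of them in both libraries. PAL2 had its whole FPKM in transcript 1, with transcript 2 listed at 0 in both libraries. For 4CL3, transcript 1 held 98.1% of the locus in replicate 1 and 98.6% in replicate 2, and for C4H1 it held 97.0% and 98.3%. The minor transcript of C4H1 reached 6.44 FPKM in replicate 1 against 3.62 FPKM in replicate 2, and that of 4CL3 reached 2.83 and 2.03 FPKM. The other 4 members, PAL1, PAL3, PAL4 and PAL5, have a single listed transcript.

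The low ligase 4CL5 was the exception, since its second transcript held a sizeable part. Transcript 2 of 4CL5 had 3.60 FPKM in replicate 1 and 6.29 FPKM in replicate 2, or 17.7% and 29.6% of the locus. Transcript 1 of 4CL5 had 16.7 FPKM in replicate 1 against 14.98 FPKM in replicate 2. The transcripts thus moved in opposite directions, while the locus sums as deposited were less than 5% apart. Transcript 2 was 1.75-fold higher in replicate 2, on an implied 39.5 reads per kilobase in replicate 1 and 78.8 in replicate 2. How the program behind the FPKM divides reads between transcripts of a locus is not given in the sources used here, and its part in these shares was not tested.

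**Figure D4:**
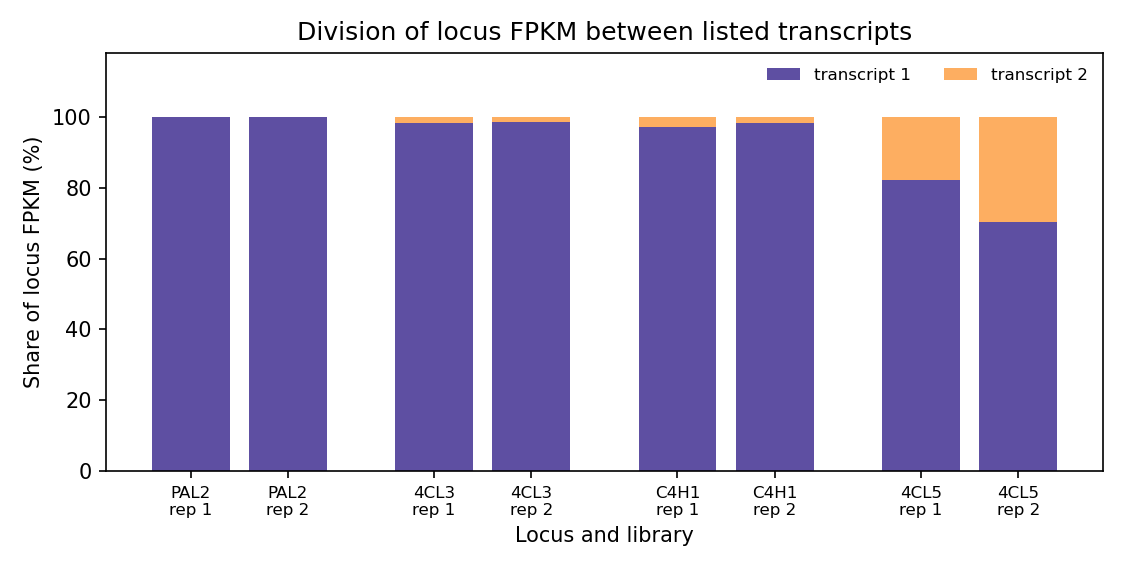
Share of the locus FPKM in percent held by transcript 1 and transcript 2 in each library, for the 4 loci with 2 listed transcripts. Transcript 2 is at 0 for PAL2, at most 3.00% for C4H1 and 4CL3, and 17.7% and 29.6% for 4CL5.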

How the data were processed

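RNA-seq values of 2 libraries, 1 file each, were used. The authors deposited 1 FPKM value per transcript, per the file headers, for 65535 transcripts with number fields up to 17; loci beyond these were not analysed here. HISAT2 2.1.0 and Bowtie2 2.2.3 appear in the submitters' processing notes with no role; the counting program, build and annotation were not given in the sources used here. FPKM were used as deposited and summed per locus (Python 3.11.15, pandas 2.3.3). A mean of at least 1 FPKM and a fold of at least 2 between the replicates, in either direction, defined loci as apart. With 1 group there was no test. Reads were recovered within a relative tolerance of 2e-09, with lengths within 0.01 of a whole number and from 100 to 16000 bases. The depth ratio, the total and the whole-number ratios of reads were tested on simulated data. The search for the fewest reads and its limits on length were not. The named loci are all 8 members, and transcripts with at least 5% of a locus were to be named. The members and lists were chosen with earlier results of these data known. The planned lists of other pathway loci, tissue markers and promoter motifs were not used, since no source here pairs them with identifiers or sequence. Alternatives were scalings, single transcripts per locus, other folds and minimums, pseudocounts, subsets and leaving out each replicate.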

Additional observations from a re-analysis of the deposited data

How the results depend on the processing

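Of 144 recomputed values, 54 leave out a replicate, which with n = 2 cannot move a value by 1 SD, and 14 equal the reported value by construction. Of the other 76, 42 stayed within 1 SD or kept their count. Many of the 42 could hardly have changed, so this number is no measure of stability. The scaling factors lie on either side of 1 (0.984 and 1.016 by sum, 0.990 and 1.010 by median of ratios). A mean level over both libraries therefore barely moves under them. Taking no minimum or one of 5 FPKM could not act on the members, whose lowest mean was 16.3 FPKM. Leaving out a replicate gave a PAL xylem-type ratio of 0.908 to 1.12, either side of 1. That ratio of sums (1.02) was 0.678 as a ratio of means per locus, 0.436 without PAL4 and PAL5, and 2.71 without PAL1. Means per locus were also taken on the log2(FPKM + 1) and log2(FPKM + 0.1) scales. Their difference, turned back from the log scale into a ratio, gave 0.497 and 0.489. These ratios per locus all include PAL5, the lowest locus, and none was computed without it. The ratio of sums over all members (0.844) was 1.44 without C4H1 and 0.528 without PAL4 and PAL5. These ratios of sums with loci left out are over unequal numbers of xylem-type and other loci, so they are not ratios per locus. With transcript 1 alone, which is also the leading transcript, 4CL3 over 4CL5 (7.24) was 9.37, and the levels were 208.7 FPKM for C4H1 and for its family, 148.0 for 4CL3, 15.8 for 4CL5 and 163.9 for the 4CL sum, lower because a transcript is left out. Where 1 library 25% above the other was enough, 1 member (PAL1) was apart, against 0 at 2-fold and 1.5-fold. Among loci at 1 FPKM in both libraries, the percentage of loci lower was 98.2 for PAL1, 97.0 for PAL2, 96.3 for PAL3, 97.7 for PAL4, 65.0 for PAL5, 98.6 for C4H1, 97.7 for 4CL3 and 72.4 for 4CL5, against 99.0, 98.3, 97.9, 98.7, 80.2, 99.2, 98.7 and 84.4 of all listed loci. By leading transcript it was 98.5 for PAL2, 98.8 for PAL4, 82.6 for PAL5, 99.3 for C4H1, 98.8 for 4CL3 and 81.9 for 4CL5. No paired analysis was possible because both libraries belong to 1 group. Depth limits the minor transcripts most, at no more than 78.8 reads per kilobase.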
